A study of Mus musculus with 36 samples.

Results

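The genes described here are the chemokines and the chemokine receptors of the mouse. They were taken from the gene count matrix by symbol, as every CC ligand (Ccl), CXC ligand (Cxcl), CC receptor (Ccr) and CXC receptor (Cxcr) with a number, leaving out Cxcl10 and Ccr2. This gave 58 of 55487 genes, of which 31 were CC ligands, 12 CXC ligands, 9 CC receptors and 6 CXC receptors. They carry 52 symbols, because 7 of the 58 are copies of Ccl19, Ccl21 and Ccl27 genes on unplaced scaffolds, and counts of those copies are uncertain. Bulk RNA-seq was done on unmyelinated optic nerve (UON), myelinated optic nerve (MON) and whole retina of C57BL/6 mice aged 2 to 4 months. The mice were bilaterally naive, or were taken 3 days (3D) or 2 weeks (2W) after unilateral optic nerve crush, or at 3D, 2W or 6 weeks (6W) after unilateral bead injection into the anterior chamber, which raises eye pressure and serves as a glaucoma model. Each of the 18 groups held 2 libraries, 1 of pooled RNA from 2 female mice and 1 from 2 male mice, and each mouse gave all tissues. With 2 pools a group, the sex of the mice and the pool cannot be told apart.

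Chemokines are small secreted proteins that guide leukocytes along a gradient. CC ligands mainly recruit monocytes, macrophages and lymphocytes, and CXC ligands of the Cxcl1 kind mainly recruit neutrophils through Cxcr2. The receptors are G protein-coupled receptors on the responding cells, and most inflammatory ligands share receptors. Some ligands are made constantly, such as Cxcl12, which acts through Cxcr4 and holds cells in place. In the injured nervous system, microglia, astrocytes and incoming macrophages are known sources.

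Depth ranged from 16.2 to 78.1 M counts over the 36 libraries (M, mega), and the naive MON pools, which enter every MON comparison with naive, stood at 78.1 M for females and 17.8 M for males. Levels are given as CPM, counts scaled to 1 M counts a library after TMM scaling over the 36 libraries, for a gene across libraries, and as FPKM, which is per length, for genes against each other. The tissues carried their labels: a list of 8 photoreceptor genes summed to between 51456 and 64341 CPM in retina and to between 8.50 and 337 CPM in the nerve libraries. All 8 genes of an oligodendrocyte and myelin list were lower in naive UON than in naive MON. In bulk tissue, fewer cells of a type and less RNA per cell cannot be told apart.

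In naive tissue the highest chemokine gene was Cxcl16 in UON and Ccl27a in retina, while Ccl12, Ccl6 and Cxcl16 led in MON, and most inflammatory CC ligands were far lower in retina than in nerve. In UON, 19 of the 58 genes reached a mean of 1 FPKM. The highest was Cxcl16, a membrane-bound ligand of Cxcr6 that can be shed, at 31.7 FPKM ± 0.493 (SD, n = 2). Ccl12, a mouse monocyte attractant, followed at 17.7 FPKM ± 17.1, and its 29.8 FPKM in the female pool and 5.61 FPKM in the male pool do not fix its place in the order. Cxcl12 at 13.9 ± 6.04, Ccl6 at 12.3 ± 0.562, Cxcl14 at 11.5 ± 1.69 and Ccl27a at 11.2 ± 1.45 FPKM did not differ beyond their spread. In MON, 15 genes reached 1 FPKM, with Ccl12 at 12.2 ± 1.91, Ccl6 at 11 ± 0.384 and Cxcl16 at 9.11 ± 2.59 FPKM not separated from each other. Cxcl12 at 7.15 ± 0.607, Ccl27a at 7.12 ± 0.887, Ccl25 at 6.24 ± 1.28 and Cxcl14 at 5.46 ± 1.01 FPKM came next, each within the spread of its neighbour.

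In retina, 13 genes reached 1 FPKM, and the order differed at the top. Ccl27a, a ligand of Ccr10 best known from skin, stood at 49.2 FPKM ± 1.14 (SD, n = 2), above every other chemokine gene. Cxcl14 followed at 12.8 ± 1.16, then Ccl25, the ligand of Ccr9, at 10.5 ± 0.0527, and Cxcl16 at 10.4 ± 0.413 FPKM, the last pair not separated. The receptors Cxcr6 and Ccr9 were measured at 3.43 ± 0.308 and 2.23 ± 0.283 FPKM. No receptor reached 1 FPKM in MON, and in UON only Cxcr4 did, at 1.96 ± 1.24 FPKM. The remaining genes that reached 1 FPKM lay below 8 FPKM: Ccl2, Ccl3, Ccl4, Ccl5, Ccl7, Ccl9, Ccl11 and Ccl25 in UON with 4 Ccl21 genes, Ccl2, Ccl3, Ccl4, Ccl5, Ccl8, Ccl9, Ccl11 and Ccl17 in MON, and Ccl9, Ccl17, Cxcl12, Cxcl13, Ccl21b and 2 scaffold copies of Ccl27a in retina.

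**Figure D1:**
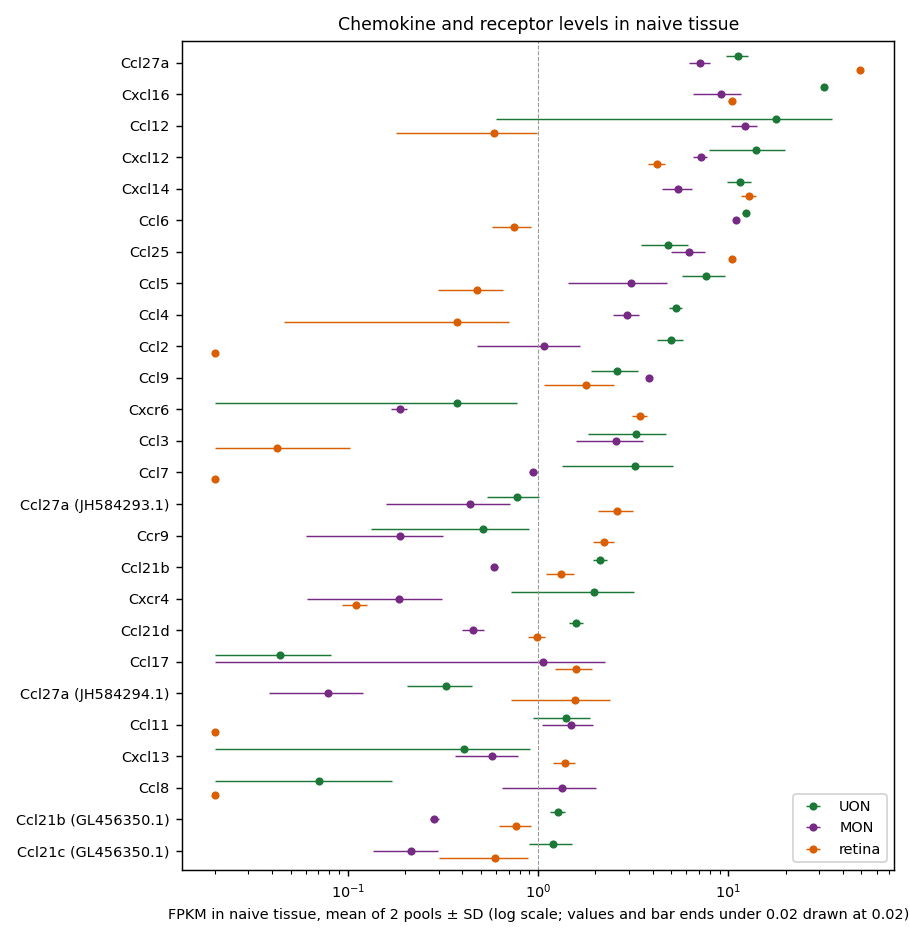
Each row is 1 of the 26 chemokine or receptor genes with a mean of at least 1 FPKM in a naive tissue, and each point is the mean of 2 pools with its SD on a log axis of FPKM, in green for UON, purple for MON and orange for retina. Ccl27a lies furthest right in retina at 49.2 FPKM and Cxcl16 furthest right in UON at 31.7 FPKM, while Ccl2 and Ccl11 are at 0 in retina.

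Between the naive tissues, 38 of the 58 genes had enough counts to be tested. Each was tested by edgeR's quasi-likelihood test with Benjamini-Hochberg adjustment over all genes tested, and calls needed an adjusted p below 0.05 together with a log2 change above 1 in size. Of all genes tested between UON and MON, 9.63% were called, and of the chemokine genes 1 of 38 was, where DESeq2 called 4 against 16.6% over all genes. That gene was Cxcl16, at 99.1 and 85.8 CPM in the female and male UON pools and at 23.2 and 24.9 CPM in the MON pools. The groups did not overlap, and the difference was 1.91 ± 0.22 (log2, SE; adjusted p = 0.00346 by edgeR).

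Against retina, more chemokine genes were called higher than lower in either nerve tissue, as was also the case over all genes. The summed levels followed beyond their spread only for the CXC ligands in UON. These summed to 58.6 ± 4.31 FPKM for UON, 24.0 ± 3.95 for MON and 29.3 ± 1.09 for retina (SD, n = 2). The CC receptors summed to 2.72 ± 0.119 FPKM for UON, 2.49 ± 0.237 for MON and 3.09 ± 0.222 for retina. The CC ligands summed to 84.2 ± 28.0 FPKM for UON, 59.8 ± 3.00 for MON and 74.5 ± 1.01 for retina, where Ccl27a was the largest share, and the CXC receptors to 2.36 ± 0.801, 0.647 ± 0.174 and 3.56 ± 0.272 FPKM (SD, n = 2). In UON over retina, 13 of 38 chemokine genes were higher and 3 lower, against 31.7% called over all genes, 18.2% higher and 13.5% lower. In MON over retina 13 were higher and 3 lower, against 27.6%, with 16.7% higher and 10.9% lower. Ccl6, a macrophage-attracting ligand, was at 22.1 and 22.7 CPM in UON, 22.4 and 17.9 CPM in MON, and 1.16 and 0.862 CPM in retina. It was thus near-equal in the nerve tissues and separated from retina in every pool. Ccl2, the main monocyte attractant, and its neighbours Ccl7 and Ccl11 had no count in either naive retina pool. With a floor of 3 counts set for each retina library, the mean of the 2 pools was 84.4-fold the floor for Ccl2 in UON and 19.2-fold in MON. For Ccl7 it was 53.1-fold and 16.0-fold, and for Ccl11 31.6-fold and 33.6-fold. These ratios depend on the floor chosen and are not lower limits for single pools. All 12 genes of a microglia list were also higher in either nerve tissue than in retina, with a sum of 937 to 1574 CPM in the naive nerve pools and of 49.8 and 60.2 CPM in the retina pools. Their part in these differences was not tested.

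Also called higher in both nerve tissues than in retina were Ccl3, Ccl4, Ccl5, Ccl12, Ccr1 and Cxcl12. Cxcl16 and Cxcr4 were called only in UON, and Ccl9 and Ccl22 only in MON, without a test of that contrast between tissues. The 3 genes called lower in both nerve tissues were Ccl27a, Ccr9 and Cxcr6. Ccl27a was at 30.7 and 28.9 CPM in retina and at 6.01 to 8.94 CPM in the nerve pools, lower by 1.83 ± 0.29 in UON and by 2.26 ± 0.29 in MON (log2, SE; adjusted p = 0.00241 and 0.00113 by edgeR). Cxcr6 was at 5.92 and 6.59 CPM in retina and at 0.239 to 1.57 CPM in the nerve pools. Cxcr6 lies whole inside the gene Fyco1 on the opposite strand. Fyco1 was at 230 and 238 CPM in naive retina, 850 and 1223 CPM in naive UON and 320 and 178 CPM in naive MON. Its part in the Cxcr6 counts was not tested. Calls lost when 1 library was left out were, in UON over retina, Ccr1 without the male UON pool (adjusted p = 0.0897 by edgeR), Cxcr4 and Cxcr6 without the male UON or male retina pool, and Ccr9 without either retina pool or the male UON pool (highest adjusted p 0.195, 0.177 and 0.151). In MON over retina they were Ccl4, Ccl5, Ccl9, Ccl22, Ccr1 and Cxcr6, each lost without at least 1 MON pool and at least 1 retina pool, with the highest adjusted p of each gene between 0.0763 and 0.293.

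After crush, edgeR called chemokine genes higher in MON and called none higher in UON or retina, while the difference between the MON and UON responses, given further on, was called for none. At 3 days, 9 of the 38 genes tested in MON were called, all of them higher, or 23.7%, against 4.26% over all genes called in either direction and 3.61% called higher. At 2 weeks 5 were called, again all higher, or 13.2%, against 2.72% in either direction and 2.13% higher. The median change of the tested chemokine genes was 1.23 at 3 days and 0.88 at 2 weeks (log2), where the medians over all genes were −0.00 and 0.05. Both crushed pools lay above both naive pools for 19 of the 38 at 3 days, against 24.8% over all genes, and for 15 at 2 weeks, against 24.1%. Of the 10 genes called at either time, 6 were CC ligands on chromosome 11, which carries 14 of the 58 genes. On GRCm38 these are Ccl2 at chr11:82035571-82037453 and Ccl7 at chr11:82045712-82047525, then Ccl5 at chr11:83525778-83530518, Ccl6 at chr11:83587882-83593087, Ccl3 at chr11:83647844-83649355 and Ccl4 at chr11:83662584-83664683. Others are Cxcl16 at chr11:70453983-70459984, Cxcl14 at chr13:56288643-56296551 and Cxcr4 at chr1:128588199-128592293.

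Ccl2 and Ccl7, monocyte attractants that act on Ccr2, gave the largest changes at 3 days. Ccl2 was at 0.764 and 1.62 CPM in the female and male naive pools, 33.2 and 55.3 CPM at 3 days, and 11.5 and 2.30 CPM at 2 weeks. Ccl7 was at 1.03 and 0.962 CPM in the naive pools, 17.0 and 45.9 CPM at 3 days, and 6.36 and 1.72 CPM at 2 weeks. Both genes were far above naive in both pools at 3 days, and at 2 weeks the male pool was back near the naive level while the female pool was not. The 3-day changes were 5.36 ± 0.88 for Ccl2 and 5.09 ± 0.82 for Ccl7 (log2, SE; adjusted p = 0.0215 and 0.0206 by edgeR), and neither was called at 2 weeks.

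Ccl3 and Ccl4, which are typical products of activated microglia, went the other way in time. Ccl3 was at 2.01 and 3.13 CPM in the naive pools, 15.1 and 14.5 CPM at 3 days, and 38.6 and 38.4 CPM at 2 weeks. Ccl4 was at 3.02 and 2.16 CPM in the naive pools, 24.6 and 35.6 CPM at 3 days, and 60.2 and 47.0 CPM at 2 weeks. The pools of each group lay close together, and the 3 groups did not overlap for either gene. Ccl3 was higher than naive by 2.65 ± 0.37 at 3 days and 3.98 ± 0.39 at 2 weeks (log2, SE; adjusted p = 0.0147 and 0.0109 by edgeR). Ccl4 was higher by 3.62 ± 0.37 and 4.39 ± 0.38 (adjusted p = 0.00737 and 0.00884), the smallest adjusted p of the chemokine genes at both times.

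Ccl6 reached the highest level of the called genes. It was at 22.4 and 17.9 CPM in the naive pools, 113 and 424 CPM at 3 days, and 200 and 146 CPM at 2 weeks. Every crushed pool was above naive, with a wide gap between the 3-day pools, and the changes were 3.69 ± 0.61 and 3.15 ± 0.58 (log2, SE; adjusted p = 0.0216 and 0.0401 by edgeR). Ccl5, a T cell and macrophage attractant, was at 1.46 and 2.89 CPM in the naive pools, 17.6 and 15.7 CPM at 3 days, and 13.1 and 5.92 CPM at 2 weeks. It was called at 3 days, at 3.02 ± 0.59 (adjusted p = 0.0363), and not at 2 weeks, at 2.14 ± 0.59 (adjusted p = 0.115).

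Promoter sequences are given for Ccl3 and Ccl6 because both are chromosome 11 ligands called at both times, and for Cxcl14 and Cxcr4, described next, because they were called at 1 time each, 2 weeks and 3 days. Each is the 250 bases before the annotated start in RefSeq on GRCm38.p6, all on the minus strand, at chr11:83649379-83649628 for Ccl3, chr11:83593088-83593337 for Ccl6, chr13:56296552-56296801 for Cxcl14 and chr1:128592300-128592549 for Cxcr4. The motifs searched, on both strands, were that of NF-kB (GGGAATTTCC, with any base as the fifth), TGANTCA of AP-1, the core of the interferon response element (GAAACAGAAA, with any bases as the fifth and the sixth) and the TATA box TATAAA. Capitals mark a match.
Ccl3: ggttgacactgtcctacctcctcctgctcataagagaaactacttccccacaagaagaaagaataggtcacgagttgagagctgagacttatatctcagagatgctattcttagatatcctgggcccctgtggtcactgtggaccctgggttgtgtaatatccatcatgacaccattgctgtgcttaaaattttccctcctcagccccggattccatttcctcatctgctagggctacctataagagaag
Ccl6: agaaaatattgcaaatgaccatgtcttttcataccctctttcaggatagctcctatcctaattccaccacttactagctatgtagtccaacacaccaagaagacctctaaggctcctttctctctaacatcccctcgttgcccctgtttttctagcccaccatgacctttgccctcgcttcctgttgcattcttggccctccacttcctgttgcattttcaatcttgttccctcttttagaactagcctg
Cxcl14: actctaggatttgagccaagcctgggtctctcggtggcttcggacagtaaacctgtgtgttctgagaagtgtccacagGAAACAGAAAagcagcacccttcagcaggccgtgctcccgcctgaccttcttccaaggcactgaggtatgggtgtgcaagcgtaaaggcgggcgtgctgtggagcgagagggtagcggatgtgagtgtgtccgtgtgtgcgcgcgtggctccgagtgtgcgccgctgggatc
Cxcr4: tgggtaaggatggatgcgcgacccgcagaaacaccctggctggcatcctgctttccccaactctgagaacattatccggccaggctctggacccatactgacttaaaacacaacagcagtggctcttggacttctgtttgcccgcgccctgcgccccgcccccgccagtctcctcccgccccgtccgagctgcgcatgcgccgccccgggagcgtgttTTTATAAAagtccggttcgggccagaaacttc

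The Ccl3 and Ccl6 windows hold none of these letters. The Cxcl14 window holds the interferon element's letters, which 3.46% of the 27025 genes with a promoter entry also hold, and the Cxcr4 window holds TATAAA on both strands in an overlapping run, a motif in 14.3% of genes. A match is a description of the letters and not of a bound factor. Entries were matched for 36 of the 52 symbols; among those not matched were Ccl2, Ccl4, Ccl5, Ccl7, Ccl11, Ccl22 and Cxcl16.

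Of the CXC ligands, Cxcl16 and Cxcl14 rose in MON. Cxcl16 was at 23.2 and 24.9 CPM in the naive pools, 72.4 and 124 CPM at 3 days, and 200 and 137 CPM at 2 weeks. It was higher by 2.10 ± 0.36 at 3 days and 2.86 ± 0.37 at 2 weeks (log2, SE; adjusted p = 0.0241 and 0.0190 by edgeR). Every crushed pool lay above both naive pools, and all crushed 2W pools above the 3D pools. Cxcl14, a ligand made by epithelia and neural tissue with no settled receptor, was at 12.2 and 13.8 CPM in the naive pools, 26.3 and 25 CPM at 3 days, and 54.2 and 53.7 CPM at 2 weeks. The pools of each group were nearly equal and the groups did not overlap. The change was called at 2 weeks, at 2.10 ± 0.29 (adjusted p = 0.0212), and not at 3 days, at 1.07 ± 0.28 (adjusted p = 0.0802).

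Among the receptors, Cxcr4 was called at 3 days. It was at 0.700 and 0.240 CPM in the naive pools, 4.67 and 6.13 CPM at 3 days, and 5.04 and 3.68 CPM at 2 weeks. Every crushed pool was above both naive pools, by 3.65 ± 0.70 at 3 days (log2, SE; adjusted p = 0.0334 by edgeR) and by 3.24 ± 0.68 at 2 weeks (adjusted p = 0.0554). Cxcl12, the ligand of Cxcr4, was not called, at 39.4 and 31.1 CPM in the naive pools, 7.47 and 27.6 CPM at 3 days, and 39.2 and 44.7 CPM at 2 weeks. Ccr1, a receptor for Ccl3 and Ccl5, was at 2.39 and 2.52 CPM in the naive pools and at 22.8 and 55.4 CPM at 3 days, at an adjusted p of 0.0502.

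**Figure D2:**
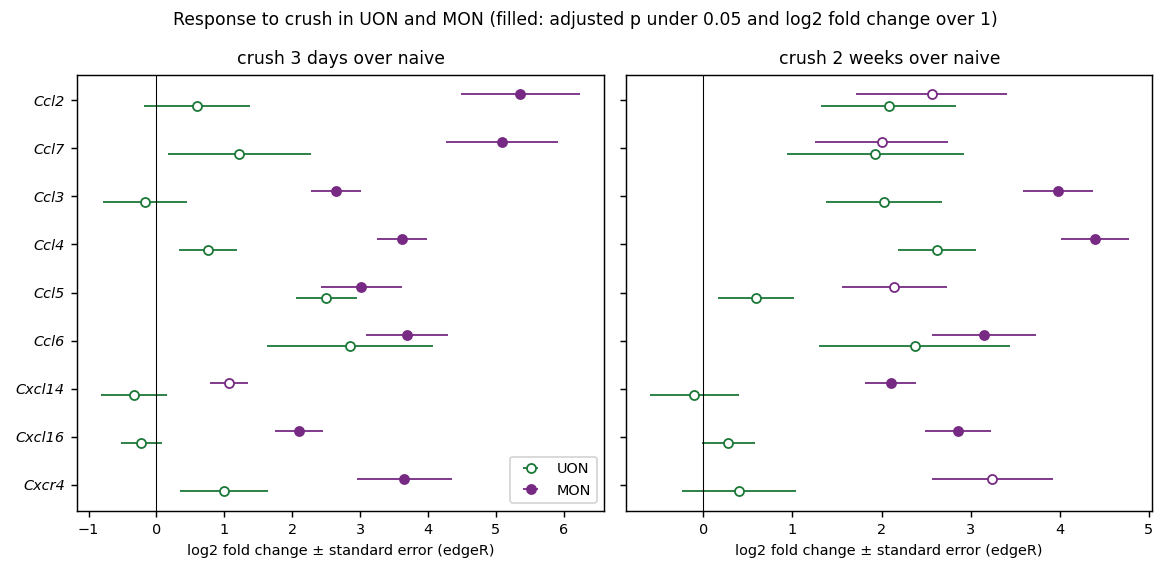
Points give the log2 fold change over naive by edgeR with its standard error for 9 genes called in MON after crush, at 3 days on the left and 2 weeks on the right, in green for UON and purple for MON; filled points were called. Filled points are all purple, and Ccl2 at 5.36 and Ccl7 at 5.09 lie furthest right at 3 days and Ccl4 at 4.39 at 2 weeks.

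These counts rested on the naive MON pools. Each MON call after crush was lost without the naive female pool, and all but those of Ccl3 and Ccl4 without the naive male pool. Such a fit holds 1 library in a group, and the share of all genes called in it is not given here. The losses can thus not be read as particular to the chemokine genes. Over the fits leaving out 1 library, the 3-day change ranged from 4.45 to 6.45 for Ccl2, from 2.37 to 4.68 for Ccl6 and from 2.29 to 2.99 for Ccl3 (log2). Cxcl16 and Cxcr4 were among the genes that lost their 3-day calls without the male 3D pool. DESeq2 called 16 at 3 days and 10 at 2 weeks, against 12.3% and 8.93% over all genes.

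Of the neutrophil-directed ligands, Cxcl2 and Cxcl3 were low in every library and Cxcl1 reached its highest level in UON. Cxcl1 was at 0.318 and 1.02 CPM in the naive MON pools and at 4.73 and 4.79 CPM at 3 days, and Cxcl2 at 0 and 0.541 CPM and at 1.99 and 2.17 CPM. Both crushed pools were above both naive pools for either gene, and neither was called. In UON Cxcl1 was at 0 and 0.382 CPM in the naive pools, 1.02 and 2.42 CPM at 3 days and 4.36 and 30.8 CPM at 2 weeks after crush. Every crushed UON pool was above both naive pools, and the 2-week difference was 6.75 ± 1.14 (log2, SE; adjusted p = 0.216 by edgeR, 3.60e-10 by DESeq2). Cxcl3 had at most 0.774 CPM in any of the 36 libraries. Their promoters are shown because they share a motif that the MON-called genes with an entry lack: each 60-base window, on the plus strand at chr5:90891149-90891208 for Cxcl1, chr5:90903777-90903836 for Cxcl2 and chr5:90786003-90786062 for Cxcl3, holds GGGAATTTCC, in capitals.
Cxcl1: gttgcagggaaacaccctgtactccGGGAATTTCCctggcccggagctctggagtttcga
Cxcl2: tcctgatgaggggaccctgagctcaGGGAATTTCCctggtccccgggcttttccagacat
Cxcl3: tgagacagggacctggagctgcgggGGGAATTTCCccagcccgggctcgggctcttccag

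The motif begins 71, 97 and 73 bases before the start of Cxcl1, Cxcl2 and Cxcl3. The NF-kB letters were found in 0.414% of all genes with an entry and in 4 of the 36 chemokine symbols, the fourth being Ccr3, which had too few counts to be tested in any fit.

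**Figure D3:**
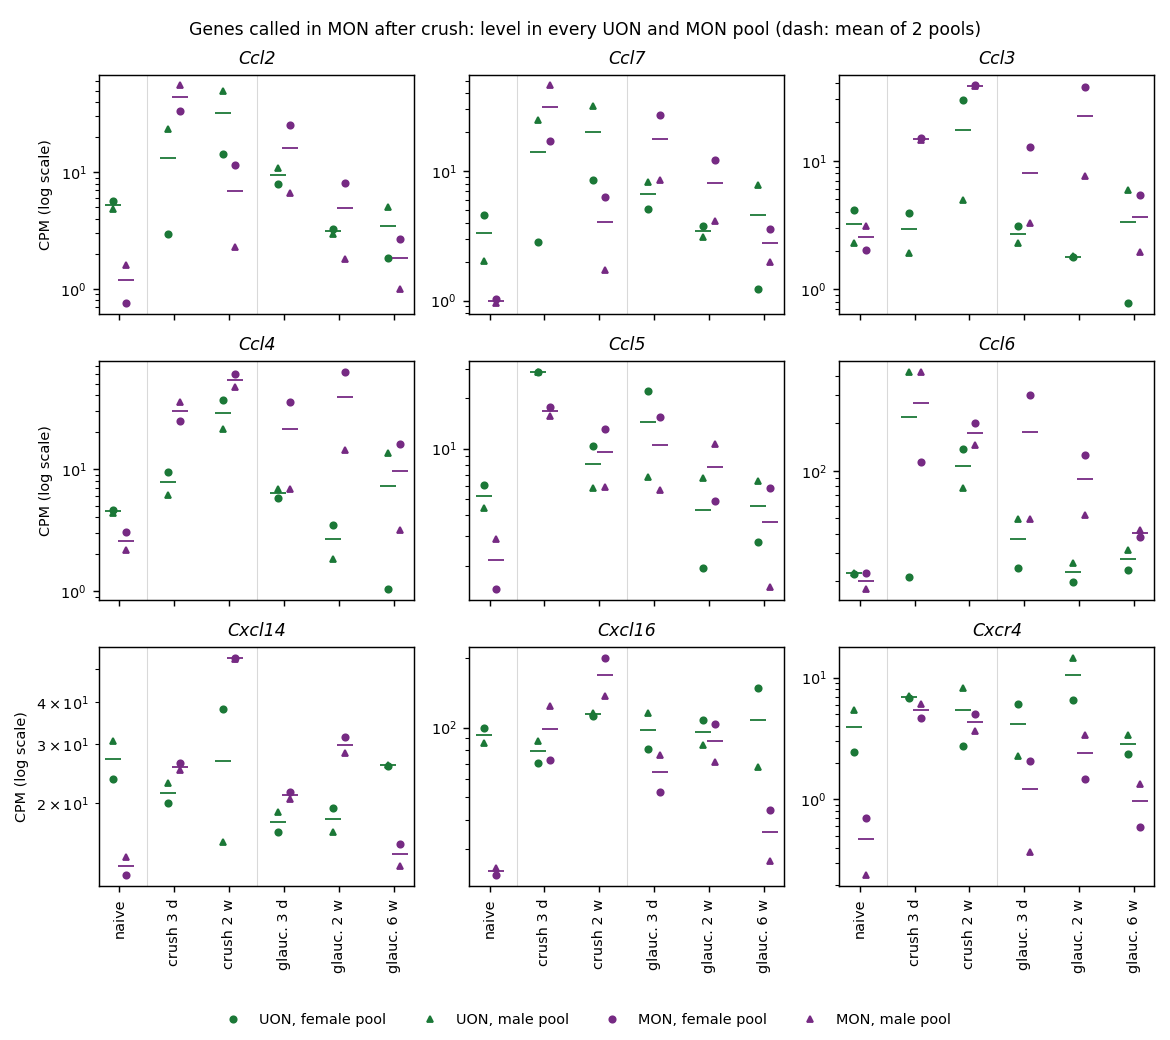
Each panel shows 1 of 9 genes called in MON after crush, with CPM on a log axis for every UON pool in green and MON pool in purple (circles female, triangles male, dashes the mean of 2 pools) across naive, crush and glaucoma groups. Of the MON crush groups, 3 days is highest for Ccl2 and Ccl7 and 2 weeks for Ccl3, Ccl4, Cxcl14 and Cxcl16, and the UON pools at a given time often lie far apart, as for Ccl6 at 21.4 and 419 CPM.

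Between 3 days and 2 weeks after crush in MON, no chemokine gene was called by edgeR, against 0.0750% over all genes, while 11 of 38 had an unadjusted p under 0.05, against 12.5% of all genes, and DESeq2 called 7, against 5.95%. Ccl2 and Ccl7 were lower at 2 weeks by 2.80 ± 0.81 and 3.09 ± 0.78 (log2, SE; adjusted p = 0.215 and 0.171 by edgeR), with both pools below. Ccl12 was at 28.4 and 35.5 CPM at 3 days and at 5.73 and 14.7 CPM at 2 weeks. Ccl3 was higher at 2 weeks by 1.33 ± 0.34 and Cxcl14 by 1.02 ± 0.28 (adjusted p = 0.181 and 0.188). Ccl2, Ccl7 and Ccl12 were thus lower and Ccl3 and Cxcl14 higher in both 2W pools than in both 3D pools, without passing the adjusted test.

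Other genes of chemokine sensing were counted in the same MON fit. Of 22 genes of receptor signalling, 8 were higher at 3 days and 6 at 2 weeks and none was lower. Among them were Pik3r5, a subunit of the lipid kinase that these receptors switch on, at 3.03 ± 0.34 at 3 days, and Dock2, which drives leukocyte migration, at 2.50 ± 0.36 (log2, SE; adjusted p = 0.00987 and 0.0153 by edgeR). Of 16 NF-kB genes, 2 were higher at 3 days, Nfkbiz at 2.32 ± 0.40 and Rel at 1.93 ± 0.39, and 2 at 2 weeks, Nfkbiz and Nfkb2. Of 16 inducing cytokines and their receptors, of which 14 were tested, 2 were higher at either time, Tnfrsf1b, a receptor for TNF, at 2.60 ± 0.41 and Ifngr2, a subunit of the interferon gamma receptor, at 1.57 ± 0.32 at 3 days. Of 19 related chemokine genes outside the set, of which 18 were tested, 3 were higher at 3 days: Ccr2, the receptor of Ccl2 and Ccl7, at 5.53 ± 0.85, the platelet and macrophage chemokine Pf4 at 5.10 ± 0.81, and Cd44 at 2.37 ± 0.27.

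Several myeloid markers were also called higher in MON after crush. Of 11 monocyte and infiltrating macrophage genes, 6 were called higher at 3 days and 2 at 2 weeks, and the list summed to 414 and 369 CPM in the naive pools, 5319 and 11417 CPM at 3 days and 10657 and 2921 CPM at 2 weeks. Lyz2 made up most of it. The pools with the higher sum, the male at 3 days and the female at 2 weeks, were also the higher for Ccl2, Ccl6 and Ccl7. Of 12 microglia genes, 1 was called at 3 days and 4 at 2 weeks, with a median change of 0.32 and 1.35 (log2). Their sums were 1574 and 1485 CPM in the naive pools, 2810 and 2650 CPM at 3 days, and 5821 and 3928 CPM at 2 weeks. Of 8 border macrophage genes, 2 were called at 3 days, Stab1 at 4.21 ± 0.53 and Pf4 at 5.10 ± 0.81, and 0 at 2 weeks, with a median change of 3.89 over the list at 3 days and 1.70 at 2 weeks, against 3.60 and 1.78 for the monocyte list (log2). Of 7 dendritic cell genes, of which 6 were tested, Itgax was called at both times, at 3.69 ± 0.66 and 5.41 ± 0.72. Of 12 neutrophil genes 5 could be tested and 1 was called at each time, Mmp8 and then Csf3r. The median change of those 5 was 4.09 at 3 days and 2.42 at 2 weeks (log2). Ly6g was at 0 in every naive and crushed MON pool. The 8 oligodendrocyte genes summed to 165369 and 123376 CPM in naive MON and to 46974 to 86979 CPM after crush. The part of these cell types in the chemokine results was not tested.

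In UON many genes lay far apart between the crushed pools. No chemokine gene was called by edgeR at 3 days, where 0% of all genes was, or at 2 weeks, against 0.0281%, while 4 and 7 of the 43 tested had an unadjusted p under 0.05, against 3.07% and 9.27% of all genes, and DESeq2 called 4 and 5, against 1.01% and 2.66%. Between the times none was called by edgeR, against 0.00468%, with 6 at an unadjusted p under 0.05, against 5.50%, and 4 called by DESeq2, against 1.79%. At 3 days the male pool stood above the female for Ccl6 at 419 against 21.4 CPM, for Ccl9, a macrophage ligand, at 90.7 against 7.66 CPM, and for Ccl2 at 23.5 against 2.95 CPM. The female pools at 3 days were at or below the naive level for these genes. At 2 weeks Ccl12 was at 61.7 CPM in the male and 8.81 CPM in the female pool and Ccl8, a monocyte ligand, at 30.3 and 0.171 CPM, but Ccl3 was at 4.91 and 29.7 CPM in the reverse order. The monocyte and macrophage list was also higher in the male pools, at 3120 and 5404 CPM against 761 and 1315 CPM in the female pools at 3 days and 2 weeks, and at 435 and 455 CPM in naive UON; its part was not tested.

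For Ccl5 at 3 days and Ccl4 at 2 weeks the crushed UON pools lay closer together. Ccl5 was at 6.03 and 4.42 CPM in the naive pools and at 28.5 and 28.8 CPM at 3 days, a difference of 2.50 ± 0.45 (log2, SE; adjusted p = 0.420 by edgeR, 9.94e-05 by DESeq2). Ccl4 was at 4.59 and 4.37 CPM in the naive pools and at 36.7 and 21.3 CPM at 2 weeks, a difference of 2.62 ± 0.44 (adjusted p = 0.219 by edgeR, 1.03e-05 by DESeq2). The crushed pools did not overlap naive at these times, and neither gene was called by edgeR.

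The difference between the MON and the UON response was tested as such. No chemokine gene was called by edgeR at 3 days or 2 weeks after crush, against 0.0120% and 0% over all genes, while 10 and 5 of 48 had an unadjusted p under 0.05, against 6.93% and 10.9% of all genes, and DESeq2 called 4 and 3, against 1.42% and 3.60%. The smallest p fell on Cxcl16 and Ccl4. Cxcl16 was at 70.4 to 116 CPM in the crushed UON pools, near its naive 85.8 and 99.1 CPM, and its MON response exceeded that in UON by 2.28 ± 0.45 at 3 days and 2.57 ± 0.45 at 2 weeks (log2, SE; adjusted p = 0.250 and 0.146 by edgeR). The MON response of Ccl4 exceeded that in UON by 2.85 ± 0.53 at 3 days (adjusted p = 0.250).

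In retina after crush, 28 of the chemokine genes were tested. At 3 days none was called by edgeR, against 0.0221% over all genes, with 2 at an unadjusted p under 0.05, against 6.34%, and none by DESeq2. At 2 weeks 1 was called, against 0.313%, and 2 by DESeq2, against 1.51%. That gene was Ccr9, the receptor of Ccl25, known for sending lymphocytes to the gut. It was at 10.1 and 11.8 CPM in the naive pools, 15.5 and 14.6 CPM at 3 days, and 2.96 and 3.47 CPM at 2 weeks. Both 2W pools were below all others, and Ccr9 fell by 1.80 ± 0.23 from naive (log2, SE; adjusted p = 0.0497 by edgeR). The call was lost without either naive pool or either 2W pool, at adjusted p of 0.0594 to 0.122, while the change stayed between −1.90 and −1.70, and DESeq2 gave an adjusted p of 4.09e-07. Between 3 days and 2 weeks no chemokine gene was called by edgeR, against 0.0485%, with 5 at an unadjusted p under 0.05, against 6.37%, and DESeq2 called 1, against 0.783%: Ccr9, at −2.29 ± 0.24 (adjusted p = 0.0513 by edgeR).

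Counts were also estimated for the transcripts of Ccr9. Ccr9-203, a coding transcript, had 398 and 458 counts in the naive retina pools, 487 and 532 at 3 days after crush, and 0 and 21 at 2 weeks. Ccr9-206, a transcript with a retained intron, had 120 and 76 counts in the naive pools, 138 and 180 at 3 days and 154 and 133 at 2 weeks. At 2 weeks Ccr9-203 was thus nearly without counts, while Ccr9-206 was not. These counts are not scaled for depth, which was 56.0 M counts in the female 2W pool and 43.8 M in the female naive pool. Ccr9 at chr9:123678439-123784330 shares exon bases with other genes, 269 of 10260 with Gm17200 on the same strand and 1932 with AC165425.1 on the opposite strand, of which 1876 lie in Ccr9-206 and 0 in Ccr9-203. Whether the counting used strand was not stated.

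Retinal ganglion cell genes, chosen after the Ccr9 values were seen, were lower at 2 weeks too. Rbpms was at 37.0 and 30.5 CPM in naive retina, 19.2 and 17.5 CPM at 3 days and 3.17 and 4.62 CPM at 2 weeks, and Pou4f1, Sncg and Rbpms2 were likewise below naive in both pools at both times. Slc17a6, which encodes a vesicular glutamate transporter, was at 59.6 and 63.9 CPM in the naive pools, 53.3 and 70.4 CPM at 3 days and 8.03 and 7.34 CPM at 2 weeks, so that it, like Ccr9, was below naive in both pools at 2 weeks and not at 3 days. In glaucoma, described further on, Slc17a6 was below both naive pools at 3 days already, and Ccr9 was not. The part of the ganglion cell genes in the Ccr9 result was not tested.

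The other constantly expressed chemokine genes of the retina were not called at any time. Ccl27a stayed between 23.8 and 30.7 CPM in the 12 retina libraries, Ccl25 between 11 and 17.2 CPM, Cxcl16 between 18 and 28.6 CPM and Cxcl14 between 14.0 and 24.2 CPM. Cxcr6 ranged from 4.25 to 11 CPM. The inflammatory ligands remained low: Ccl12 was at 0.155 and 0.442 CPM in naive retina and at 1.83, 1.29, 1.03 and 3.24 CPM after crush, and Ccl6 at 1.16 and 0.862 CPM and at 1.90, 1.25, 4.56 and 2.66 CPM. Every crushed pool was above both naive pools for both ligands, and neither was called.

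**Figure D4:**
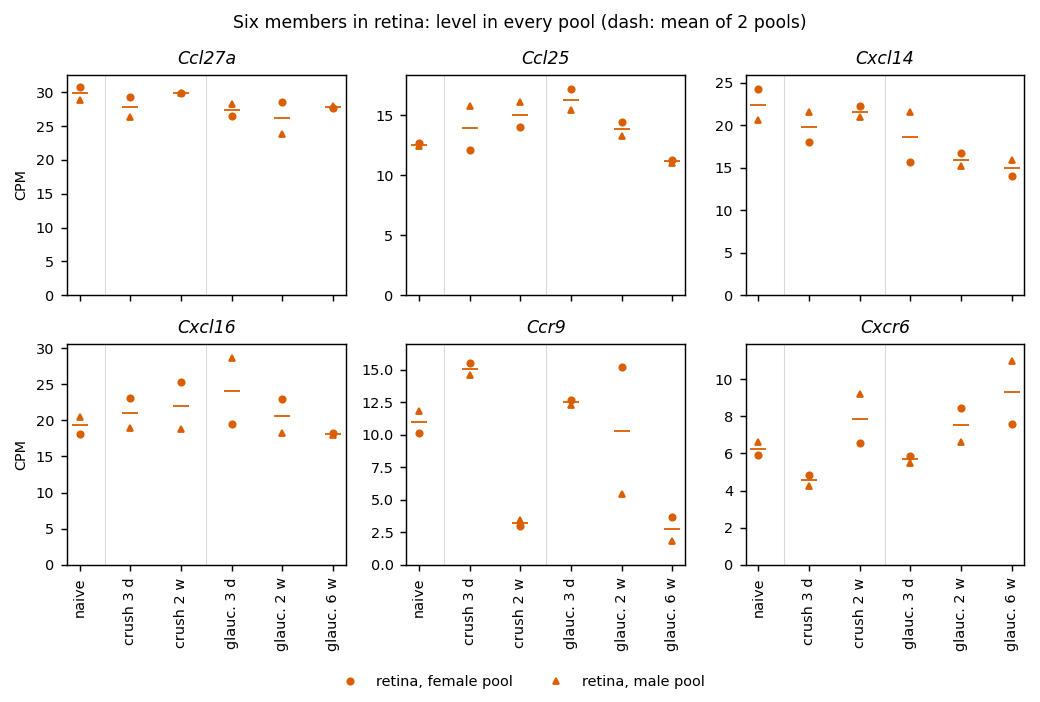
Panels show CPM in every retina pool (circles female, triangles male, dashes the mean of 2 pools) for 6 genes across naive, crush and glaucoma groups, on linear axes that start at 0. Ccr9 is at 2.96 and 3.47 CPM at 2 weeks after crush and at 3.70 and 1.86 CPM at 6 weeks of glaucoma, below the naive 10.1 and 11.8 CPM, Ccl27a stays between 23.8 and 30.7 CPM, and Cxcr6 ranges from 4.25 to 11 CPM.

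In the glaucoma model no chemokine gene was called by edgeR against naive in any tissue at any time. In MON, where 0% of all genes were called at each time, 10, 8 and 5 of 44 had an unadjusted p under 0.05 at 3D, 2W and 6W, against 8.07%, 8.78% and 4.91% of all genes, and DESeq2 called 6, 8 and 0, against 2.30% at 3D and 2.65% at 2W. The genes DESeq2 called at 3 days were Ccl2, Ccl4, Ccl6, Ccl7, Ccr1 and Cxcl16. Ccl2 was at 25.5 CPM in the female and 6.70 CPM in the male pool, Ccl7 at 27.1 and 8.54 CPM, and Ccl6 at 301 and 49.4 CPM. Both pools were above naive, the female by far more, and the monocyte and macrophage list stood at 4108 CPM in the female and 888 CPM in the male pool; its part was not tested. The differences from naive were 3.23 ± 0.86 for Ccl2, 3.91 ± 0.55 for Ccl7 and 2.76 ± 0.65 for Ccl6 (log2, SE; adjusted p = 0.437, 0.270 and 0.383 by edgeR).

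At 2 weeks of glaucoma, Ccl4 in MON was at 62.9 and 14.4 CPM, Cxcl16 at 104 and 71.0 CPM and Cxcl14 at 31.5 and 28.1 CPM. All were above both naive pools, by 3.47 ± 0.55, 1.83 ± 0.34 and 1.17 ± 0.26 (log2, SE; adjusted p = 0.232, 0.293 and 0.293 by edgeR). At 6 weeks the MON pools were nearer to naive, with Ccl2 at 2.68 and 1.01 CPM and Cxcl16 at 44.0 and 26.7 CPM. Ccl4 was at 16.0 and 3.14 CPM, its female pool above naive and its male pool not far from it.

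In UON, where 0% of all genes were called at each time, 2, 3 and 2 of 44 chemokine genes had an unadjusted p under 0.05 at 3D, 2W and 6W, against 3.87%, 3.57% and 2.01% of all genes, and DESeq2 called 1, 0 and 0, against 0.608% at 3D. The gene was Cxcl1 at 3 days, at 3.14 and 4.35 CPM against 0 and 0.382 CPM in naive UON. In retina, where 0.00429%, 0% and 0.00858% of all genes were called, 3, 2 and 7 of 33 had an unadjusted p under 0.05, against 6.09%, 6.29% and 5.67%, and DESeq2 called 1, 0 and 3, against 0.669% at 3D and 0.526% at 6W. Ccl12 was called by DESeq2 at 3 days and 6 weeks, at 3.13 and 3.06 CPM and at 3.58 and 1.12 CPM. Ccr9 was at 12.7 and 12.3 CPM at 3 days, 15.2 and 5.44 CPM at 2 weeks and 3.70 and 1.86 CPM at 6 weeks. Both 6W pools were below naive, by 2.08 ± 0.45 (log2, SE; adjusted p = 0.637 by edgeR, 0.000626 by DESeq2). Ccr9-203 had 0 and 39 counts at 6 weeks, against 0 and 21 at 2 weeks after crush. Of the ganglion cell genes, Rbpms at 23.3 and 11 CPM, Sncg at 141 and 160 CPM and Slc17a6 at 42.2 and 43.3 CPM were below both naive pools at 6 weeks, and Pou4f1 and Rbpms2 overlapped naive; their part was not tested. The difference in response between MON and UON was called for no chemokine gene at any glaucoma time by edgeR, against 0% of all genes at each, with 6, 9 and 4 of 51 at an unadjusted p under 0.05, against 5.86%, 6.18% and 3.10%, and 0, 2 and 0 called by DESeq2, against 0.603% at 2W. Between 3D and 6W of glaucoma edgeR called none in UON, MON or retina, against 0%, 0% and 0.0129% over all genes, with 1, 10 and 3 at an unadjusted p under 0.05, against 4.54%, 4.96% and 8.0%, and DESeq2 called 0 in UON, 3 in MON, against 0.854%, and 1 in retina, against 0.563%.

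Crush and glaucoma were also set against each other at 3 days and 2 weeks. In MON no chemokine gene was called by edgeR at either time, against 0.0162% and 0.0485% over all genes, with 5 of 48 at an unadjusted p under 0.05 at each time, against 10.4% and 7.51%, and 1 called by DESeq2 at each, Ccl11 and then Ccl8, against 3.34% and 1.80%. Cxcl14 at 2 weeks was at 54.2 and 53.7 CPM after crush and 31.5 and 28.1 CPM in glaucoma, higher after crush by 0.88 ± 0.22 (log2, SE; adjusted p = 0.325 by edgeR). In UON 2 and 10 of 46 had an unadjusted p under 0.05, against 1.07% and 10.2%, none was called by edgeR, against 0% and 0.0418%, and DESeq2 called 0 and 5, against 2.58% at 2 weeks. In retina 1 of 36 had an unadjusted p under 0.05 at each time, against 4.34% and 8.12%, none was called by edgeR, against 0.00810% and 0.113%, and DESeq2 called 0 and 1, against 0.797% at 2 weeks. The retinal gene was Ccr9 at 2 weeks, lower after crush by 1.60 ± 0.43 (log2, SE; adjusted p = 0.362 by edgeR).

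**Figure D5:**
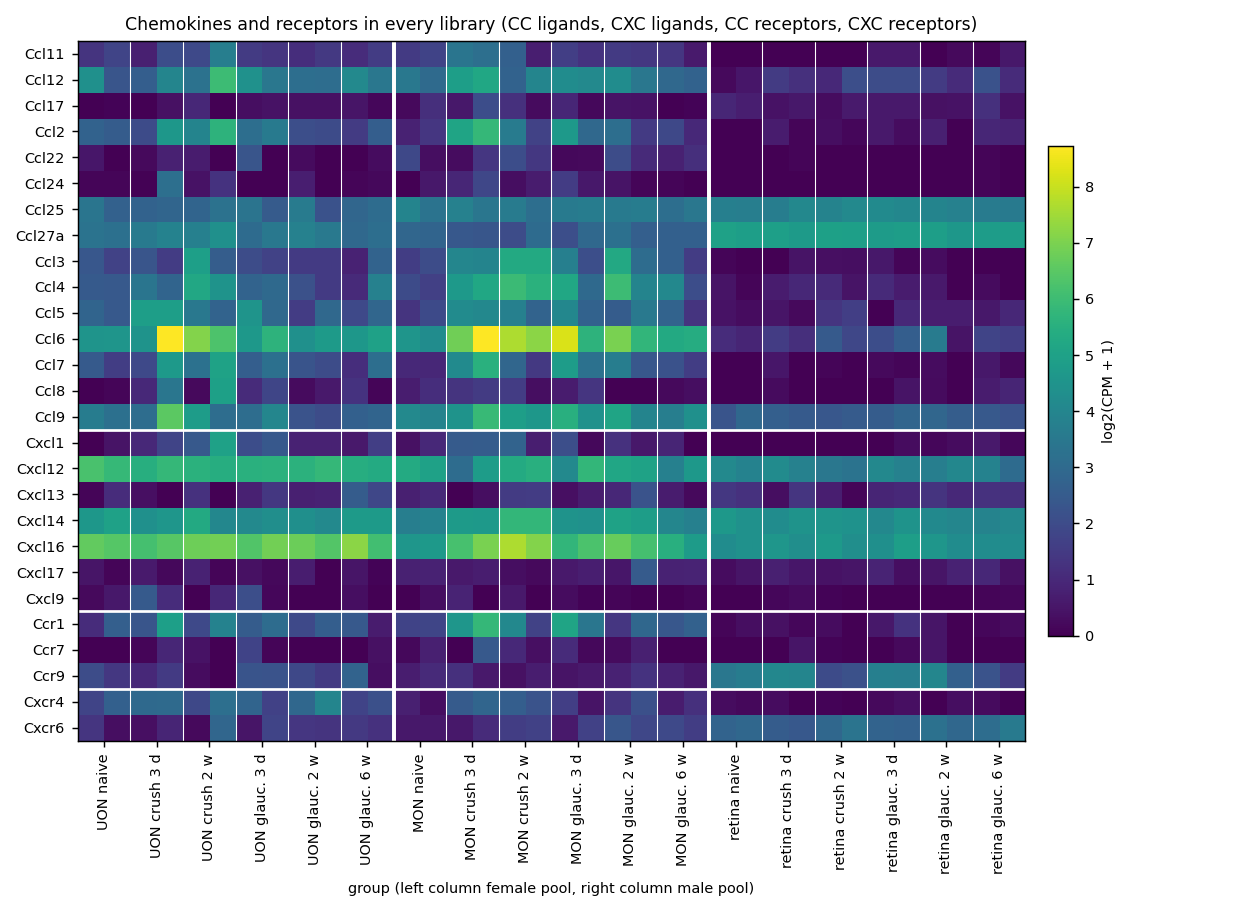
Colour gives log2(CPM + 1) for 27 chemokine and receptor genes that reached 3 CPM in a library, with genes in rows by role and the 36 libraries in columns, female pool left of male pool within each group. In MON after crush, and in its female pool after 3 days of glaucoma, the rows of Ccl2, Ccl4, Ccl6 and Ccl7 are brighter than in naive MON, while the retina columns are dark for these genes and bright for Ccl27a.

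Of the 58 genes, 53 could be tested in at least 1 fit and 23 in all of them. The 5 that never had enough counts were Ccl1, Ccl20, Ccl26, Ccr3 and a scaffold copy of Ccl21a, with Ccl26 at 0 in every library. Over all comparisons 19 genes were called at least once, and the other tested genes never were. Cxcr3, a chemokine receptor found on T cells, had at most 2.65 CPM in any library. Ccr7, the receptor that guides dendritic cells to lymph nodes, had at most 4.43 CPM. Cxcr2, the receptor of the neutrophil ligands, was detected in MON at 3 days after crush at 1.64 and 1.80 CPM and had no count in either pool at 2 weeks.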

How the data were processed

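Libraries were made with an ultra-low-input kit from pooled total RNA. Per the methods and the submitters' processing notes, HISAT2 2.2.1 placed the read pairs on GRCm38 and StringTie 1.3.0 quantified Gencode M25 genes; the deposited table of all 36 libraries holds the authors' estimated counts per gene and per transcript, and 1 count stands for 74.9 bases, so that a read pair gives several counts and a floor of 3 counts is under a pair. The deposited FPKM values, and the coverage of each gene that the authors deposited beside them, come from the same assembly. A few FPKM a little below 0 are rounding, and the coverage was used only to find the bases behind a count. No columns belonged to another series.

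The counts were analysed with edgeR 4.0.16 (TMM, filterByExpr with a minimum count of 10 and total of 15, quasi-likelihood F test) in R 4.3.3, with a term for sex, per tissue and model with its naive pools, and with Benjamini-Hochberg adjustment over all genes. Comparisons within a tissue and model share their naive pools. DESeq2 1.42.0, median-of-ratios factors, no filter, no sex term, 1 fit of all libraries and leaving out each library were alternatives. The fits were checked on simulated counts. The difference in response between UON and MON was also fitted with the pool of mice that gave both tissues as a block.

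Named genes were those called between naive tissues or against naive, and those at 1 FPKM or more in a naive tissue; ganglion cell genes and other names outside that rule were added after their values were seen. The counts cover all 58 genes, some of which are not reported here by name. The members and lists were chosen with earlier results of these data known. The p-values rest on the spread left after the terms for group and sex. With 1 pool of each sex in a group, a shift between the sexes common to all groups of a fit is taken out. That left 2 residual degrees of freedom in the naive and crush fits and 3 in the glaucoma fits of a tissue. The counting's strand setting is not given in the sources used here. Exon overlaps were read from Gencode M21 on GRCm38.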

Additional observations from a re-analysis of the deposited data

How the results depend on the processing

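The counts of called chemokine genes moved with the test, the filter and single pools, and the cause was not tested. For settings other than DESeq2 the share called over all genes is not given here. Those counts show how far the calls moved and cannot be read as particular to the chemokine genes. With DESeq2 the count was 4 for naive UON over MON; in UON 4 and 5 for crush at 3D and 2W, 4 between those times, 1 for glaucoma at 3D and 5 for crush over glaucoma at 2W; in MON 16 and 10 for crush, 7 between the times, 6 and 8 for glaucoma at 3D and 2W, 3 for 6W over 3D and 1 for crush over glaucoma at either time; in retina 2 for crush at 2W, 1 between the times, 1 and 3 for glaucoma at 3D and 6W, 1 for 6W over 3D and 1 for crush over glaucoma at 2W. For the difference between the MON and UON responses it was 4 and 3 for crush and 2 for glaucoma at 2W. With all 36 libraries in 1 fit the count was 2 for naive UON over MON, 1 for UON crush at 2W and for UON crush over glaucoma at 2W, 3 for MON crush at 2W, 1 between the MON crush times, 0 for retina crush at 2W and 2 for the difference in response at 2W. Without the filter it was 2 for naive UON over MON, 1 for UON crush at 2W, 2 for UON crush over glaucoma at 2W, 15, 10 and 6 for MON crush at 3D, 2W and between them, 3 and 2 for MON glaucoma at 3D and 2W, 1 for MON crush over glaucoma at 2W, 1 between the retina crush times, and 7 and 3 for the differences in response to crush. Without the sex term it was 2 for naive UON over MON and 1 between the retina crush times. Leaving out single pools gave 1 to 2 for naive UON over MON, 0 to 1 and 0 to 2 for UON crush at 3D and 2W, 0 to 1 for UON crush over glaucoma at 2W, 0 to 19 and 0 to 11 for MON crush at 3D and 2W and 0 to 4 between them, 0 to 1 for MON glaucoma at 3D, 0 to 1 for MON crush over glaucoma at 2W, 0 to 1 for retina crush at 2W and between its times, and 0 to 1 and 0 to 5 for the differences in response to crush.

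Of 48 called values of single genes, all 48 were called in the same direction with DESeq2, with median-of-ratios factors and without the filter. With all 36 libraries in 1 fit 13 lost the call, and without the sex term 1 did. Among those 13 were Ccl3, Ccl5 and Cxcr4 in MON at 3D after crush, Ccl3 and Ccl6 in MON at 2W and Ccr9 in retina at 2W. Leaving out single pools kept 234 and lost 54 calls. Ccl6 in UON crush over glaucoma at 3D and Ccl8 at 2W, neither called, turned without the male crush pool: over single pools left out they ranged from −0.63 to 3.43 and from −0.25 to 5.96 (log2). The replicate block of the pool of mice changed no call in the differences in response. Genes under 1 CPM in both groups compared rest on few read pairs, which limits what could be detected for them.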

Other observations

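Ccl25 carried most of its counts in transcripts not annotated as coding, and Cxcl12 carried a large share there in each tissue. Of the Ccl25 counts, the nonsense-mediated decay transcript Ccl25-208 held 33.3%, 27.4% and 42.1% (UON, MON, retina), and the retained-intron transcript Ccl25-209 held 26.1%, 37.1% and 28.7%. Of the Cxcl12 counts, the retained-intron transcript Cxcl12-204 held 46.9% in UON, 53.7% in MON and 62.8% in retina. The split between transcripts is StringTie's estimate.

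Cxcl17, a ligand of mucosal surfaces, was at 4.68 CPM in the male MON pool at 2 weeks of glaucoma and at no more than 0.971 CPM in any other library. A list of 7 surface and glandular epithelium genes summed to 309 CPM in that pool and to 5.55 CPM in the female pool of the group, and the highest sum, 1366 CPM, was in the female MON pool at 6 weeks of glaucoma, where Cxcl17 was at 0.805 CPM.

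Ccl24, a ligand of eosinophils and macrophages, was at 8.22 CPM in the male UON pool at 3 days after crush and at no more than 2.62 CPM elsewhere.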
